A study of Mus musculus with 6 samples.

Results

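The genes described here are 10 transcripts of fast skeletal muscle fibres, Acta1, Myh1, Myh2, Myh4, Ckm, Mylpf, Tnnt3, Tnnc2, Actn3 and Pvalb, read in 6 tumours to see how much muscle RNA each tumour sample held. They were taken by symbol from the deposited table, where each matched 1 of 40303 gene models. The tumours were grown from CT26, a mouse colon carcinoma line, under the skin of wild-type BALB/c mice. Mice of the vehicle group (n = 3) received phosphate-buffered saline with 10% glycerol, and mice of the PEG-glutaminase group (n = 3) received 50 IU/kg of PEGylated glutaminase, an enzyme that breaks down glutamine, into the peritoneum. Treatment began once tumours could be felt, every mouse was treated 2 times at an interval of 3 days, and its frozen tumour gave 1 library. Neither sex nor age is given in the labels used here.

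Fast fibres contract by sliding thin actin filaments along thick myosin filaments, switched on by calcium through troponin and powered by ATP that creatine kinase regenerates. In the mouse a sheet of skeletal muscle, the panniculus carnosus, lies in the skin over most of the trunk, so skeletal muscle lies close to a tumour implanted there. The labelled tissue is tumour, and these genes are known as markers of mature muscle fibres.

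The 3 fast myosin heavy chain genes lie side by side on mouse chromosome 11 in the order Myh2, Myh1, Myh4, between the developmental genes Myh3 and Myh8, and their upstream sequences are shown because the mix of these 3 chains differed between tumours, as described further on. They are the 250 bases before the RefSeq start site (GRCm38.p6, plus strand), at chr11:67170777-67171026 for Myh2, chr11:67199852-67200101 for Myh1 and chr11:67237562-67237811 for Myh4. The capitals mark the longest stretch common to all 3, found by a search for it, which begins 130, 165 and 163 bases before the start site in that order.
Myh2: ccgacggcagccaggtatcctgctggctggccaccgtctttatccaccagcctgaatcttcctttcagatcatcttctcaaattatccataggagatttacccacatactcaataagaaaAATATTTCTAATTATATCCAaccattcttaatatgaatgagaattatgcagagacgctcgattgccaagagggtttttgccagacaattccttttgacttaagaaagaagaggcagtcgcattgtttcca
Myh1: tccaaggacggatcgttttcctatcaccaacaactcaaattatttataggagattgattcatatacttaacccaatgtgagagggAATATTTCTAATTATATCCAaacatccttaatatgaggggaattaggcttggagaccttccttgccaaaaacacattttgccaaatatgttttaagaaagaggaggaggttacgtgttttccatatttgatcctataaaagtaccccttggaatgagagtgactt
Myh4: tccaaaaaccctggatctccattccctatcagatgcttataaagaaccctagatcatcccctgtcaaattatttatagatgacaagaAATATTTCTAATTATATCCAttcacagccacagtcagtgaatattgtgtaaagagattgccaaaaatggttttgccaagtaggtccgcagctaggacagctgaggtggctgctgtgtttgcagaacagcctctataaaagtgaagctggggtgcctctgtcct

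This stretch of 20 bases, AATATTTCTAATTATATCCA, occurred upstream of 3 of 32851 RefSeq start sites on either strand, which are these 3 genes. Acta1, the most abundant member, is on the minus strand at chr8:123894776-123895025 (GRCm38.p6), and the capitals in its upstream sequence mark a CArG box, the motif bound by serum response factor, and TATAAA close to the start site.
Acta1: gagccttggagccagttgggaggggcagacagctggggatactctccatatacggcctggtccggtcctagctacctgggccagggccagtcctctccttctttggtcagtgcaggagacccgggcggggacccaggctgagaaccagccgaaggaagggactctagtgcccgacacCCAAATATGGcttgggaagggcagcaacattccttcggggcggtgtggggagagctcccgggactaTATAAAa

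RefSeq gave start sites for 8 members, 9 sites in all, and none for Tnnt3 and Actn3. On either strand, a CArG box stood upstream of 2 of the 9 sites, those of Acta1 and Myh4, against 1.47% of all start sites. The motif of MEF2, a transcription factor of muscle, stood upstream of 3 of 9 against 2.92%, and TATAAA upstream of 3 of 9 against 12.4%. The E-box CANNTG, the motif of the MyoD family, stood upstream of 6 of 9 against 66.2% of all start sites. The letters of a MEF2 motif and of TATAAA can overlap. These matches describe letters in a window and not sites in use.

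The libraries held 16455052 to 18051480 reads, and 18300 to 19405 gene models had a read. As background to all that follows, vehicle 1 stood apart for keratinocyte genes: Krt14, of basal skin cells, was at 1727 normalized counts there, at 0.981 and 56.9 in vehicle 2 and 3, and at 2.07, 0.990 and 0 in PEG-glutaminase 1, 2 and 3. PEG-glutaminase 2 had the highest summed level of the muscle genes themselves, 1.64 times that of vehicle 3, and PEG-glutaminase 3 had the lowest. The deposited values are normalized counts, reads divided by a size factor of the library, and p-values measure the spread between single tumours of separate mice.

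Muscle RNA was a very small part of every library and differed between tumours by more than an order of magnitude. Together the 10 genes took 102 of every 1000000 reads in PEG-glutaminase 2 (1713 reads, 95% Wilson interval 97.3 to 107) and 60.8 in vehicle 3 (1057 reads, 57.3 to 64.6). On the same scale they took 29.6 in vehicle 1 (521 reads, 27.2 to 32.3), 11.1 in vehicle 2 (201 reads, 9.70 to 12.8) and 8.60 in PEG-glutaminase 1 (143 reads, 7.30 to 10.1). PEG-glutaminase 3 had 2.80 per 1000000 (46 reads, 2.10 to 3.73). The highest and lowest tumours were therefore both from PEG-glutaminase mice. In a bulk sample, fewer fibres and less RNA per fibre cannot be told apart.

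In summed normalized counts the ratio between PEG-glutaminase 2 and PEG-glutaminase 3 was 35.8, and that between vehicle 3 and vehicle 2 was 5.26. The sums had a mean of 579 ± 425 under vehicle and 630 ± 924 under PEG-glutaminase (SD, n = 3 each), while the medians were 503 and 148. The groups thus differed in opposite directions by mean and by median, and both differences were smaller than the spread within either group. No test was made of a score over the members.

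**Figure D1:**
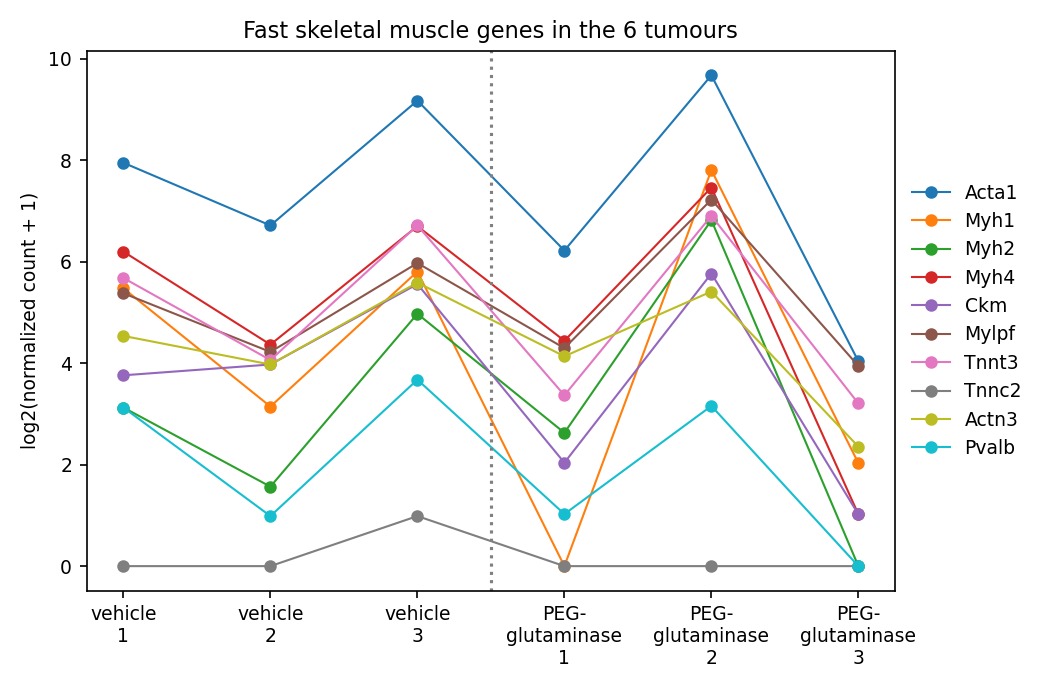
Each point is the log2(normalized count + 1) of 1 gene in 1 library, with libraries along the horizontal axis, the dotted line between the groups and lines that only link the points of a gene. PEG-glutaminase 2 and vehicle 3 are the highest pair for 9 of the 10 genes, and PEG-glutaminase 3 is lowest or tied for lowest for 9.

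Acta1 (ENSMUSG00000031972), the actin of skeletal muscle thin filaments, stood at 246, 104 and 577 normalized counts in vehicle 1, 2 and 3, and at 73.5, 816 and 15.4 in PEG-glutaminase 1, 2 and 3. Its PEG-glutaminase values lay both above and below all vehicle values. PEG-glutaminase 2 held 52.9 times the Acta1 signal of PEG-glutaminase 3, and vehicle 3 held 5.55 times that of vehicle 2.

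Tnnt3 (ENSMUSG00000061723), the fast troponin T that ties troponin to tropomyosin, stood at 50.2, 15.7 and 104 in vehicle 1, 2 and 3 and at 9.32, 119 and 8.23 in PEG-glutaminase 1, 2 and 3. The same tumours were high and low as for Acta1. Tnnc2 (ENSMUSG00000017300), the fast troponin C that binds calcium, had 1 read in all, in vehicle 3. In PEG-glutaminase 2, where Tnnt3 had 120 reads, Tnnc2 had 0, and 3 reads there, the limit that a count of 0 allows, would be 0.179 per 1000000 reads. Whether the BALB/cJ gene model covers the Tnnc2 transcript was not tested, so the 0 and this limit hold for reads assigned to that model and not for the transcript. Tnni2, the fast inhibitory troponin of the same complex and not a member, stood at 87.9, 73.6 and 92.2 in vehicle 1, 2 and 3 and at 50.8, 86.1 and 87.4 in PEG-glutaminase 1, 2 and 3. It was as high in PEG-glutaminase 3 as in PEG-glutaminase 2, unlike Tnnt3.

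Among thick filament genes, Myh4 (ENSMUSG00000057003), the myosin heavy chain of the fastest, IIb fibres, stood at 72.4, 19.6 and 103 in vehicle 1, 2 and 3 and at 20.7, 175 and 1.03 in PEG-glutaminase 1, 2 and 3. Myh1 (ENSMUSG00000056328), the IIx heavy chain, stood at 43.5, 7.85 and 54.9 in vehicle 1, 2 and 3 and at 0, 223 and 3.09 in PEG-glutaminase 1, 2 and 3. Myh2 (ENSMUSG00000033196), the IIa heavy chain of more oxidative fast fibres, stood at 7.73, 1.96 and 30.4 in vehicle 1, 2 and 3 and at 5.18, 112 and 0 in PEG-glutaminase 1, 2 and 3. In all 3 genes the vehicle range lay inside the PEG-glutaminase range. PEG-glutaminase 2 exceeded vehicle 3 by 1.70 times in Myh4, 4.05 times in Myh1 and 3.68 times in Myh2.

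Mylpf (ENSMUSG00000030672), the regulatory light chain bound to these heavy chains, stood at 40.6, 17.7 and 61.8 in vehicle 1, 2 and 3 and at 18.6, 148 and 14.4 in PEG-glutaminase 1, 2 and 3. Relative to Acta1 it was high in the lowest tumour: PEG-glutaminase 3 had 14 Mylpf reads beside 15 Acta1 reads, or 93.3 per 100 Acta1 reads (exact interval 41.7 to 207). In the other 5 libraries Mylpf had 10.7 to 25.4 reads per 100 Acta1 reads.

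Actn3 (ENSMUSG00000006457), the alpha-actinin that anchors actin at the Z-disc of fast fibres, stood at 22.2, 14.7 and 47.1 in vehicle 1, 2 and 3 and at 16.6, 41.6 and 4.12 in PEG-glutaminase 1, 2 and 3. Here vehicle 3 and not PEG-glutaminase 2 was highest. Relative to Acta1 it was lowest in PEG-glutaminase 2, at 5.10 reads per 100 Acta1 reads (exact interval 3.65 to 6.95).

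Of the energy and calcium genes, Ckm (ENSMUSG00000030399), the muscle creatine kinase, stood at 12.6, 14.7 and 46.1 in vehicle 1, 2 and 3 and at 3.11, 53.5 and 1.03 in PEG-glutaminase 1, 2 and 3. Pvalb (ENSMUSG00000005716), the calcium buffer that speeds relaxation of fast fibres, stood at 7.73, 0.981 and 11.8 in vehicle 1, 2 and 3 and at 1.04, 7.92 and 0 in PEG-glutaminase 1, 2 and 3. Ckm followed Acta1 in its high and low tumours, and Pvalb, with 30 reads in all, was higher in vehicle 3 than in PEG-glutaminase 2.

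Per length, with reads divided by transcript length and scaled to a common total per library (TPM), the members ranked by their mean level over the 6 libraries as Acta1 (29.6), Mylpf (9.26), Tnnt3 (6.63), Myh4 (1.53), Myh1 (1.30), Actn3 (1.17), Ckm (1.11), Pvalb (0.700), Myh2 (0.616) and Tnnc2 (0.0317). The levels of Acta1 ran from 1.52 to 82.2 over the libraries, those of Mylpf from 2.69 to 28.2 and those of Myh4 from 0.0244 to 4.24. Those of Tnnt3 ran from 1.09 to 16.0. The ranges of all neighbours in this order overlapped across libraries. Compared library by library, Tnnt3 was above Myh4 in all 6, and no other step of the order held in every library. Within libraries Acta1 was the highest member in 5 of 6, and in PEG-glutaminase 3 Mylpf (2.69) was above Acta1 (1.52).

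Leaving out Tnnc2, the members followed each other over the 6 libraries, with a Pearson r of log2 values between 0.70 and 0.98 over the 36 pairs (median 0.91, n = 6 libraries). These pairs share the same 6 libraries. PEG-glutaminase 2 was the highest library for 7 of 10 members, and for 23.9% of all tested genes. PEG-glutaminase 3 was lowest or tied for lowest in 9 of 10, against 12.8% of tested genes. PEG-glutaminase 2 and vehicle 3 were the highest pair in 9 of 10, against 6.57%.

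The spread between tumours of the same group was among the widest of all genes. A filter on the mean of 10 normalized counts was passed by 8 members, and Tnnc2 and Pvalb did not pass. The within-group SD of these 8 on the log2 scale ran from 1.23 in Actn3 to 3.04 in Myh1, beside a median of 0.151 over the 13557 tested genes. Each of the 8 lay at or above the 99.0th percentile of that spread.

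**Figure D2:**
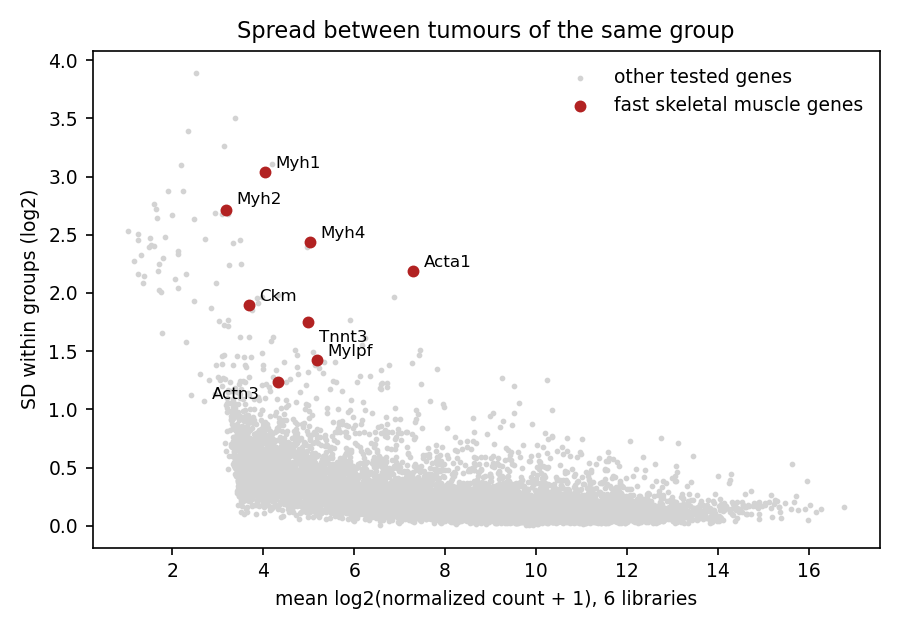
Each point is 1 tested gene, with its mean log2(normalized count + 1) over the 6 libraries on the horizontal axis and its SD within groups, in log2 units, on the vertical axis. The 8 tested muscle genes, in red, lie between 1.23 and 3.04, above nearly all genes of similar level.

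The comparison of PEG-glutaminase with vehicle found no member past the threshold. By limma with Benjamini-Hochberg adjustment, 0 of 8 tested members passed over all genes, where 0.0369% of tested genes did (5 of 13557). At an unadjusted limma p under 0.05 there were 0 of 8, against 18.4% of tested genes. edgeR called 0 of the 8, with 0.0369% of genes called, and DESeq2 called 0 of the 8, with 3.92% of genes called. The groups overlapped in all 10 members, whereas they did not overlap in 25.8% of tested genes. An exact permutation test of 3 against 3 cannot give a p below 0.1.

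All 8 tested members had a log2 difference below 0, as had 50.0% of tested genes. Their median was -1.15, beside -5e-05 over all tested genes. The largest in size were those of Myh1 at -1.53 ± 2.28 (SE; 95% interval -7.49 to 4.44; limma adjusted p = 0.755) and Ckm at -1.49 ± 1.31 (-4.71 to 1.73; adjusted p = 0.573). Acta1 differed by -1.30 ± 1.66 (-5.66 to 3.05; limma adjusted p = 0.712). Actn3 had the narrowest interval, -2.62 to 1.15 around -0.73. These intervals leave room for changes of several-fold in either direction, so the data do not show that muscle RNA was alike in the groups.

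**Figure D3:**
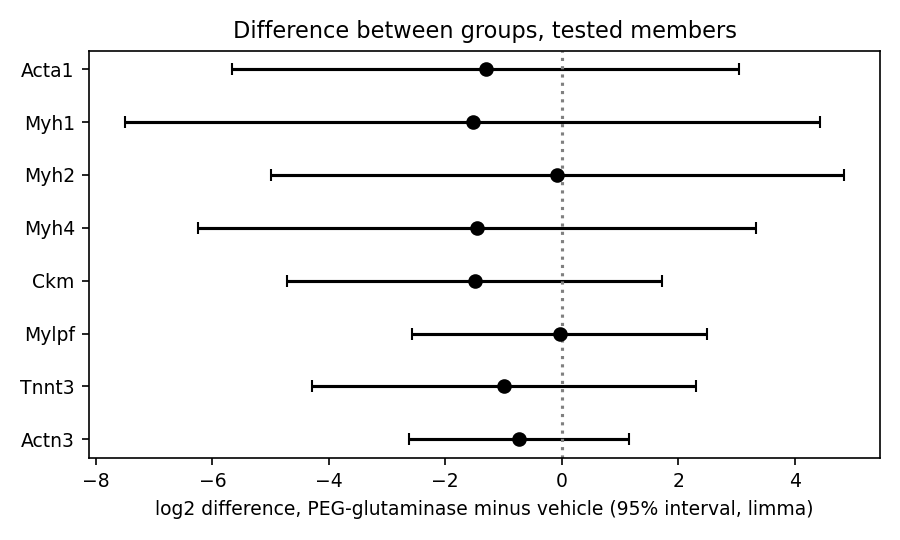
Points are log2 differences, PEG-glutaminase minus vehicle, of the 8 tested members, and bars are limma's 95% intervals. All points lie below 0, the nearest being Mylpf at -0.04, and every bar crosses 0.

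The direction itself turned with the scale. On normalized counts the PEG-glutaminase mean was higher in 4 of 10 members, by 2.13 times in Myh1 (75.3 ± 128 against 35.4 ± 24.6, SD, n = 3 each) and by 2.92 times in Myh2 (39.0 ± 63.1 against 13.4 ± 15.0). It was 0.976 of the vehicle mean in Acta1 (302 ± 446 against 309 ± 243). edgeR and DESeq2, which compare means of counts, put the median of the 8 at -0.000374 and -0.0105. Without PEG-glutaminase 2 the limma median was -2.51, and without PEG-glutaminase 3 it was 0.0373; no member passed in either case. Without vehicle 1 and PEG-glutaminase 2 together it was -2.45, and the lowest limma adjusted p of any member was 0.121, for Ckm.

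The mix of myosin heavy chains also differed between tumours. In vehicle 1, Myh4 took 58.6% of the 128 reads of Myh4, Myh1 and Myh2 together (exact interval 49.6% to 67.2%), and in vehicle 3 it took 54.7% of 192 (47.4% to 61.9%). In PEG-glutaminase 2 it took 34.4% of 515 reads (30.3% to 38.6%), below both intervals. There Myh1 was the main chain at 43.7% (39.4% to 48.1%).

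Myh2 took 6.25% of these reads in vehicle 1 (2.74% to 11.9%), 16.1% in vehicle 3 (11.2% to 22.1%) and 21.9% in PEG-glutaminase 2 (18.4% to 25.8%). The Myh4 and Myh2 shares of PEG-glutaminase 2 thus differed from those of vehicle 1 by more than counting error. The other libraries had 30, 25 and 4 such reads. In PEG-glutaminase 1 Myh1 had 0 of 25 reads (exact interval 0% to 13.7%), beside 20 reads of Myh4. These shares compare libraries and not treatments.

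**Figure D4:**
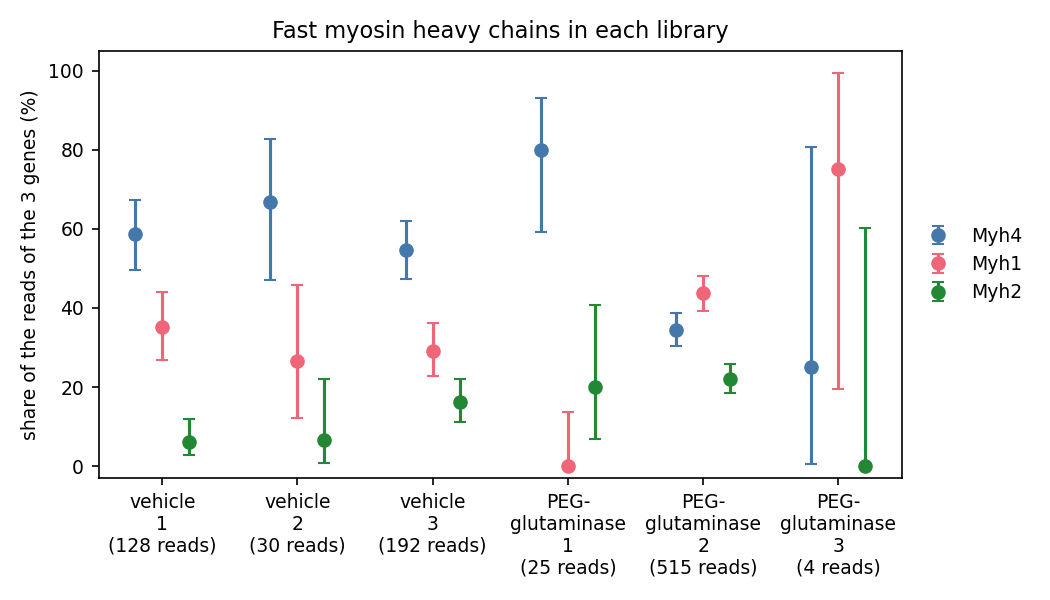
Points are the shares, in percent, of Myh4, Myh1 and Myh2 among the reads of the 3 genes in each library, with the number of reads under each library and exact 95% binomial intervals as bars. Myh4 leads in vehicle 1 and 3 (58.6% and 54.7%) and Myh1 in PEG-glutaminase 2 (43.7%).

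Reads shared between the heavy chains limit these shares. Of all 100-base windows of the Myh1 transcript, 9.73% occur unchanged in a transcript of another gene, as do 9.17% of Myh2 and 3.85% of Myh4 windows. With 50-base windows the shares are 26.7%, 26.9% and 18.9%. For Ckm, Mylpf, Tnnt3, Tnnc2 and Pvalb they are 0% at both lengths. Acta1 had 2.22% of its 50-base windows in another gene, the unnamed model Gm47692.

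Other muscle genes were read beside the members. Of 12 other fast fibre genes 9 were tested, and limma called 0 (1 higher and 1 lower at an unadjusted p under 0.05; edgeR and DESeq2 called 0). Their median log2 difference was -0.58, with 8 of 9 below 0. The most abundant were Eno3, the muscle enolase, at 0.30 ± 0.10 (SE; limma adjusted p = 0.170), Pfkm, a phosphofructokinase, at -0.36 ± 0.10 (adjusted p = 0.135), and Tnni2 at -0.21 ± 0.24 (adjusted p = 0.659). None of these 3 followed the members, with an r of -0.02, 0.07 and 0.44 to the members' mean over the 6 libraries. Less abundant genes of the list were mixed. Myl1 (0.99), Atp2a1 (0.95), a calcium pump, and Mybpc2 (0.91), a myosin-binding protein, followed the members. Myoz1 (0.88) and Pygm (0.71) did so less closely. Pgam2 (0.34) did not, at 47.5 in PEG-glutaminase 2 and 53.5 in PEG-glutaminase 3. The mean of the list's tested genes had an r of 0.97.

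Of 22 skeletal fibre genes with no fast or slow type, 12 were tested and limma called 0 (1 higher at an unadjusted p under 0.05; edgeR and DESeq2 called 0), with a median of -0.29. Des, the intermediate filament desmin, stood at 175, 114 and 312 normalized counts in vehicle 1, 2 and 3 and at 111, 330 and 79.2 in PEG-glutaminase 1, 2 and 3, the order of the members with smaller steps. Xirp2, an actin-binding repeat protein of striated muscle, went from 0 in PEG-glutaminase 3 to 223 in PEG-glutaminase 2. Cox6a2, a cytochrome oxidase subunit of muscle, did not follow the members (r = -0.19). It stood at 55.1, 55.9 and 67.7 in vehicle 1, 2 and 3 and at 157, 100 and 82.3 in PEG-glutaminase 1, 2 and 3. Its groups did not overlap, as in 25.8% of tested genes. It was the gene higher at an unadjusted p under 0.05, by 0.87 ± 0.25 (SE, limma adjusted p = 0.144).

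Slow fibre genes had low counts, though not below all members. Per length, the highest by mean level over the 6 libraries were Tnnc1 (2.96 TPM), Tnnt1 (1.47) and Csrp3 (1.16). The members Acta1, Mylpf and Tnnt3 were higher than all of these, while Myh4 was at 1.53 and Ckm at 1.11. Of 13, 5 were tested and limma called 0 (0 at an unadjusted p under 0.05; edgeR and DESeq2 called 0), with a median of 0.11. Csrp3, a Z-disc LIM protein, followed the members, with 42.2 normalized counts in vehicle 3, 64.3 in PEG-glutaminase 2 and at most 5.80 elsewhere. Tnnc1 and Myoz2 lay between 4.12 and 23.5. The defining slow genes Myh7 and Myl2 had at most 1.98 and 2.06 normalized counts, and Myl3 was at 0 in every library.

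Genes of muscle stem cells and regenerating fibres were near 0. Pax7 and Myf5 had no read in any library, Myod1 had at most 0.990 normalized counts and Myog at most 4.91. The developmental heavy chains Myh3 and Myh8, neighbours of the fast genes on the chromosome, reached 2.97 and 16.8, both in PEG-glutaminase 2. Chrna1, a subunit of the muscle acetylcholine receptor, stood at 69.5 to 109 normalized counts in all libraries and did not follow the members (r = -0.10). Of the 16 genes in this list 2 were tested, and limma called 0 (1 at an unadjusted p under 0.05; edgeR and DESeq2 called 0).

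**Figure D5:**
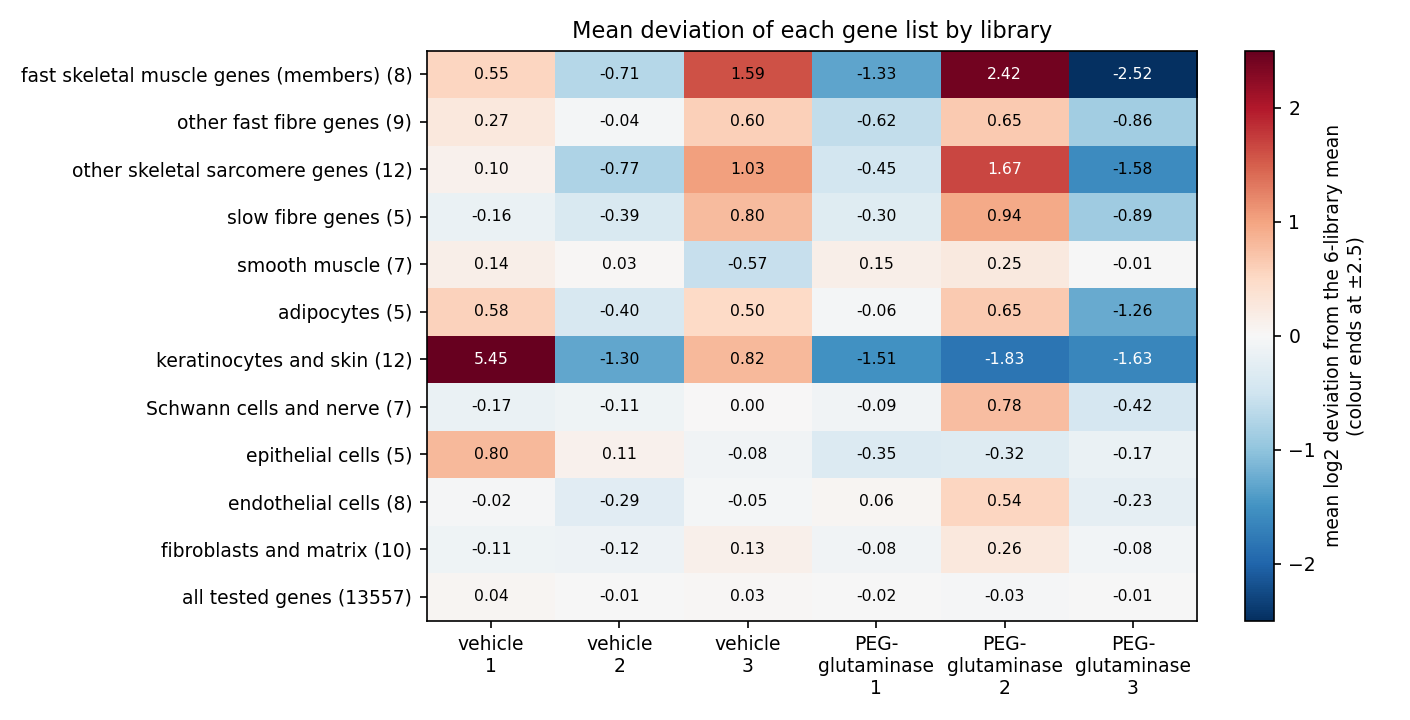
Each cell is the mean deviation, in log2 units, of a gene list's tested genes from their own mean over the 6 libraries, with lists as rows (number of tested genes in brackets) and libraries as columns. The rows of the members, other fast genes, untyped fibre genes and slow genes peak in PEG-glutaminase 2 and are lowest in PEG-glutaminase 3. So do the adipocyte row (0.65 and -1.26) and the Schwann and nerve row (0.78 and -0.42). The skin row stands at 5.45 in vehicle 1.

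Markers of other tissues were compared by their mean deviation per library. The members deviated by 0.55, -0.71 and 1.59 in vehicle 1, 2 and 3 and by -1.33, 2.42 and -2.52 in PEG-glutaminase 1, 2 and 3. The skin list had all 13 matched genes highest in vehicle 1, with a summed level of 8871 there and 73.3 to 287 elsewhere. It deviated by -1.51, -1.83 and -1.63 in PEG-glutaminase 1, 2 and 3, alike in libraries low and high for muscle. In vehicle 2 and 3 the skin list deviated by -1.30 and 0.82. Its most abundant genes after Krt10 were Krt14 and Krt1.

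Adipocyte genes deviated by 0.65 in PEG-glutaminase 2 and by -1.26 in PEG-glutaminase 3. The summed level of that list was 860 to 1141 in vehicle and 753 to 1195 in PEG-glutaminase tumours, and its defining genes Adipoq and Plin1 had at most 7.85 and 10.9 normalized counts. Fabp4 (481 to 691), Lipe (160 to 259) and Plin4 (47.5 to 146) were its most abundant genes. Car3, a carbonic anhydrase that muscle also makes, moved like the members, from 1.03 in PEG-glutaminase 3 to 149 in PEG-glutaminase 2. Cfd was also lowest in PEG-glutaminase 3 (7.20) and highest in PEG-glutaminase 2 (59.4), while Plin4 was lowest in PEG-glutaminase 2 (47.5). The mean of the list's tested genes, Car3 and Cfd included, had an r of 0.91 to the members' mean. The part of fat in the muscle result was not tested.

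Endothelial genes were highest in PEG-glutaminase 2 in 8 of 8, where the mean deviation was 0.54 and Pecam1, Cdh5 and Kdr stood at 1258, 1252 and 674. Fibroblast genes deviated by 0.26 there: of the 3 most abundant, Col3a1 (17549) and Col1a1 (14492) were highest in that library, and Col1a2 was highest in vehicle 3 (43907). Schwann and nerve genes deviated by 0.78 there: of the 3 most abundant, Nefm (844) and Nefl (652) were highest in that library, and Prx was highest in PEG-glutaminase 3 (581). The part of these tissues in the muscle result was not tested.

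Smooth muscle genes, with Smtn, Mylk and Acta2 most abundant, had an r of -0.19 to the members' mean. Like the members, the list deviated most upward in PEG-glutaminase 2 (0.25), but it was lowest in vehicle 3 (-0.57). Acta2 was at 208 in vehicle 3 and at 282 to 386 elsewhere. Smtn (1051) and Mylk (604) were not low in vehicle 3, beside 6-library means of 1045 and 574. Cardiac genes showed Tnnt2 at 65.8 to 123, Myl4 at 21.8 to 40.6 and Actc1 at 6.93 or less. Epithelial genes had their highest mean deviation in vehicle 1 (0.80), but of the 3 most abundant only Cdh1 was highest there (125), while Krt20 was highest in vehicle 3 (5226) and Krt18 in vehicle 2 (263). Over these 8 lists of other tissues limma and edgeR called 0 genes (limma: 3 higher and 6 lower at an unadjusted p under 0.05), and DESeq2 called Kdr and Nefm higher and Krt20 and Plin4 lower.

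Among the 10 genes outside the members that most resembled their mean log2 level over the 6 libraries were Myl1 (Pearson r = 0.99), the fast essential light chain of myosin, Tmem255a (0.99), Eef1a2 (0.99), the translation elongation factor of muscle and neurons, Des (0.99), Thbs4 (0.98), a thrombospondin, Lrrc32 (0.97), Mybpc1 (0.97), a myosin-binding protein of the thick filament, H19 (0.97), an imprinted noncoding RNA, and Actn2 (0.97), the alpha-actinin of all striated fibres. Of these 10, 4 were on the muscle lists. They differed in the size of their steps: PEG-glutaminase 2 held 8.49 times the Thbs4 signal of PEG-glutaminase 3, 4.16 times its Des signal, 2.41 times its Tmem255a signal and 1.75 times its Lrrc32 signal.

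Eef1a2 stood at 16.4, 6.87 and 25.5 in vehicle 1, 2 and 3 and at 3.11, 31.7 and 2.06 in PEG-glutaminase 1, 2 and 3. H19 stood at 46.4, 22.6 and 54.9 in vehicle 1, 2 and 3 and at 11.4, 79.2 and 4.12 in PEG-glutaminase 1, 2 and 3. Both thus repeated the members' order of high and low tumours. With only 6 libraries, an r above 0.9 was reached by 0.656% of tested genes, and by 12 of the 28 tested genes of the muscle lists outside the members. All these values share the same 6 libraries and are a description.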

How the data were processed

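Messenger RNA was captured from total RNA on poly-T beads and copied with random hexamers, per the labels' protocols. The 3 members of each group were named by the sample titles. The deposited library columns hold a signal: reads counted per gene model and scaled by 1 size factor per library. Per the submitters' processing notes, the tools were FastQC, STAR, featureCounts, DESeq and DESeq2. Read length, genome build, strand setting and the handling of shared reads: not given in the sources used here. Gene models are those of BALB/cJ, per the file headers. Of 40396 rows, 93 repeated a model and were dropped.

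Dividing each library by its smallest step gave whole reads for 100% of non-zero values (tolerance 0.01). The step of PEG-glutaminase 2 lies close to 1. Gene models without a symbol held 0.13% to 0.214% of reads.

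The authors' deposited log2 fold changes, their standard errors, Wald scores and p-values were not used. In the 2698 gene models read in 1 library, the authors' deposited mean signal was typically 0.124 of that library's value, near the 0.125 of a mean over 8 libraries and not the 0.167 of a mean over 6.

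The test was limma 3.58.1 in R 4.3.3 on log2(value + 1), with a mean trend and robust estimation, for the 13557 genes whose mean reached 10, two-sided, with Benjamini-Hochberg adjustment and a threshold of 0.05. Differences on this scale understate the change of low genes. It was tested on simulated data. Alternatives were other pseudocounts and filters, TMM scaling, a replicate block, edgeR 4.0.16 and DESeq2 1.42.0 on the recovered reads, and each library left out in turn; leaving out vehicle 1 and PEG-glutaminase 2 together was chosen after seeing the data. Levels per length divide reads by the longest GENCODE M21 transcript of the table's Ensembl identifier, found for 99.4% of tested genes, and scale each library to a common total. Intervals on read shares are 95% Wilson or exact (Clopper-Pearson) and cover counting error only.

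The 10 members and the 12 comparison lists were chosen with earlier results of these data known. Named genes were all members, and the 3 most abundant genes of each list and any that passed. The 10 genes outside the members that followed them most closely over the libraries were also named, leaving out pseudogenes and unnamed models. Outside this rule, Musk, Car3, Cfd, Tnnt1, Atp2a1, Mybpc2, Myoz1, Pygm and Pgam2 were chosen after their values were seen. So were the defining markers Myh7, Myl2, Myl3, Pax7, Myf5, Myod1, Myog, Myh3, Adipoq and Plin1. Some genes that this rule names are not reported here. Of the list genes, Flg2 and Dsg1a had no match by symbol.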

Additional observations from a re-analysis of the deposited data

How the results depend on the processing

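The limma count of 5 called genes became 136 with no filter, 1 with the number as a replicate block, 3 without vehicle 1 and PEG-glutaminase 2 together, and 486 by DESeq2. Leaving out 1 library put it at 0 (vehicle 1, vehicle 2 or PEG-glutaminase 1; 2379, 1685 and 1939 genes at an unadjusted p under 0.05) to 25 (PEG-glutaminase 3), with 20 without PEG-glutaminase 2. Same-numbered libraries of the groups had an r of -0.13, -0.21 and -0.22 between their deviations over genes, and differently numbered ones -0.013 to 0.19. Deviations were taken from group means, which ties these r to each other, so they cannot show whether the numbers pair the tumours. Each number stands in both groups, so the block cannot change a member's log2 difference and says nothing on its direction. With the block no member was called.

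Of 117 member values under these alternatives, 96 kept their direction and 21 turned. None passed the threshold by limma, edgeR or DESeq2, and the lowest limma adjusted p was 0.121. The block and the other filters repeat a member's main log2 difference, so their values, counted among the 96, could not turn. The 96 therefore overstate how steady the direction was. edgeR and DESeq2 turned Myh1 to 1.10 and 1.09, Myh2 to 1.55 and 1.55, Myh4 to 0.0242 and 0.0143, and Mylpf to 0.605 and 0.597. A pseudocount of 5 turned Myh2 to 0.308 and Mylpf to 0.00996. Leaving out 1 library gave ranges of -2.82 to 0.000586 for Acta1, -3.79 to 0.11 for Myh1, -1.91 to 1.5 for Myh2, -3.02 to 0.20 for Myh4, -1.07 to 0.57 for Mylpf and -1.45 to 0.0741 for Actn3; Ckm and Tnnt3 stayed below 0. Other than the count tests' comparison of means in place of logs, the cause was not tested. The members' sum relative to the mean library moved in PEG-glutaminase 3, from 0.0783 to 0.109 per length. In that library 46 reads limit every ratio between members.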

Other observations

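Musk, the receptor kinase of the neuromuscular junction, was chosen from the comparison lists after its values were seen. It had 16.7 normalized counts in vehicle 3, the library with the second highest level of the fast muscle genes, 1.93 in vehicle 1 and 0 in the other 4 libraries.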
